A study of Mus musculus with 28 samples.

Results

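Chemokines are small secreted proteins that direct the movement of cells, and chemokine receptors are the G protein-coupled receptors through which cells sense them. The 49 genes described here were taken from a table of 25251 mouse genes by symbol alone, as every gene named Ccl, Cxcl, Xcl or Cx3cl plus a number (31 ligands) or Ccr, Cxcr, Xcr or Cx3cr plus a number (18 receptors), and 2 chemokines were left out of this rule and are not reported here. Messenger RNA was measured in 3 bone marrow populations. ECs (endothelial cells, CD45-Ter119-CD31+) and MSCs (mesenchymal stromal cells, CD45-Ter119-CD31-CD166-Sca1+) were sorted as 100 cells per library from the cells that line the bone, and MNCs (mononuclear cells of the bone marrow) as 200 cells per library. The mice were C57 BL6 and aged 8 to 10 wk, and each population came from wild-type mice (Flt3+/+) and from Flt3-ITD knock-in mice, which per the study's methods carried the allele on both chromosomes (Flt3 ITD/ITD). The internal tandem duplication (ITD) keeps the Flt3 receptor tyrosine kinase active and is present in every cell of these mice. The 28 libraries comprised 5 of either genotype from ECs, 5 from MSCs and 4 from MNCs. Bone-lining cells were released by digestion of bone fragments with collagenase. The labels name bone marrow as the source of MNCs, while the study's text can be read as placing them among the bone-lining cells, so whether MNCs were digested is not clear, and if they were not, digestion and population cannot be told apart.

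In the bone marrow, chemokines made by stromal and endothelial cells hold blood-forming cells in place or let them leave. Ligands that bind Cxcr2 attract neutrophils, ligands that bind Ccr2 draw monocytes out of the marrow, and ligands of Ccr7 and Cxcr5 organize lymphocytes. Many of these genes arose by duplication and still lie side by side, and many are switched on by NF-kB, a transcription factor activated by inflammatory signals.

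By the RefSeq annotation of GRCm38.p6, all 49 genes were placed, and 5 runs of at least 3 members were found in which neighbors lay within 500 kb, of which 4 are described. Neighbors were often highest in the same population. At chr11:82035577-82179812, Ccl2, Ccl7, Ccl11 and Ccl8 had their highest mean in MSCs, and Ccl1 was not above 1 count in any library. Further along the same chromosome, at chr11:83525778-83664683, all 5 members (Ccl5, Ccl9, Ccl6, Ccl3 and Ccl4) had their highest mean in MNCs. At chr5:90759298-90905938, 4 of the 5 neutrophil-attracting ligands (Cxcl5, Cxcl3, Cxcl1 and Cxcl2) were highest in MSCs. At chr8:94745684-94812038, Cx3cl1 and Ccl17 had their highest mean in MSCs and Ccl22 in MNCs. Ccl17 was above 0 in a single MSC library, and its mean was 0.472 in MSCs against 0.461 in MNCs. These are descriptions of neighboring genes and carry no test.

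Promoters were searched for the NF-kB letters GGNNTTTCC (GGAAANNCC on the other strand) in the 250 bases before the start of each gene. The RefSeq promoter table held 35 of the 49 members, and 7 of them (20%) had a match, against 5.62% of 27025 genes of all kinds. Of 21 ligands 6 matched, and of 14 receptors only Ccr3. The matches of 3 neighbors on chromosome 5 lay at a like distance before the start, at 70 bases in Cxcl1, 72 in Cxcl3 and 77 and 96 in Cxcl2, and the same 9 letters, GGAATTTCC, stood in all 3, at 96 bases in Cxcl2. Cxcl1 had a further match on the other strand at 89 bases, and Cxcl9, the leading ligand of ECs after Cxcl1, had matches at 42 and 130 bases. Ccl9 and Ccl20 also matched. These 4 windows are shown because Cxcl1 and Cxcl9 were the most abundant ligands of ECs, Cxcl1 also of MSCs, and Cxcl2 and Cxcl3 are its relatives with the same letters. Each window is 250 bases on the strand of the gene, GRCm38.p6, with the matches in capitals. A match is a run of letters and not a measured binding site.
Cxcl1, chr5:90890995-90891244 (+): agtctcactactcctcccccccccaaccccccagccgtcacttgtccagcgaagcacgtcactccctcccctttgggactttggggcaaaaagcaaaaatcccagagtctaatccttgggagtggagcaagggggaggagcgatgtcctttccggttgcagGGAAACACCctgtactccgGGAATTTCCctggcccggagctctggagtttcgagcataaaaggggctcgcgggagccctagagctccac
Cxcl2, chr5:90903649-90903898 (+): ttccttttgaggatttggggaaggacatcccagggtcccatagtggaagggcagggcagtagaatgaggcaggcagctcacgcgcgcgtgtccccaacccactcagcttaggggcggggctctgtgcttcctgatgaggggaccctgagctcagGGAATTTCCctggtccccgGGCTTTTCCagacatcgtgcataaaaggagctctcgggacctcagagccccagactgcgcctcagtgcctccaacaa
Cxcl3, chr5:90785851-90786100 (+): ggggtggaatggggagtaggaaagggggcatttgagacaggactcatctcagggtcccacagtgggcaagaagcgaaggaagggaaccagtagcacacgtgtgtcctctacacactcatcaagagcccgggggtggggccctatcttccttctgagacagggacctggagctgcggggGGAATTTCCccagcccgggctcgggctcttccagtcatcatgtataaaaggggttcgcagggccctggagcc
Cxcl9, chr5:92328080-92328329 (-): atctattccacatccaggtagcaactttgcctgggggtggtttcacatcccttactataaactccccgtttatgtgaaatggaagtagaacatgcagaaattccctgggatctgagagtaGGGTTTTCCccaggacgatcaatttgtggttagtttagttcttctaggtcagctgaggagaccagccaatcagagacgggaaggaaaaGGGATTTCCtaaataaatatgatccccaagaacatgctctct

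Levels are given as RPKM, the read count scaled to transcript length and library size, so that genes of different length can be compared. Libraries held 6377013 to 33880743 counts, and 3 counts were taken as the smallest number that shows a transcript, which covers counting error only because amplified reads are not independent molecules. The populations carried the markers of their labels. Cdh5, the endothelial cadherin, was at 165 to 252 RPKM in ECs and at most 0.19 in MSCs, Pdgfrb was at 11.4 to 25.0 in MSCs and at most 3.85 in ECs, and Ptprc, which encodes the leukocyte antigen CD45, was at 125 to 161 in MNCs. Flt3 was at 2.53 to 6.96 RPKM in Flt3+/+ and 6.91 to 14.8 in Flt3 ITD/ITD MNCs, which does not check the allele, since the duplication leaves the gene expressed. The 2 libraries of sorted stroma with the most leukocyte transcripts were Flt3 ITD/ITD EC replicate 2, with a Ptprc RPKM of 4.57 and a summed RPKM of 596 over 12 leukocyte genes where the other 9 EC libraries had 17.5 to 157.0, and Flt3 ITD/ITD MSC replicate 5 with 462, where the other 9 MSC libraries had 32.8 to 194. Results that rest on these 2 libraries are given with and without them. Others carried some blood cell transcripts and were kept throughout. Flt3+/+ MSC replicate 5, at 194, had a mean log2(RPKM + 1) of 2.94 over the 12 genes, against 0.52 to 1.46 in the rest of its group. Flt3+/+ EC replicate 1 had summed RPKM of 1326 over 14 neutrophil and 2982 over 7 erythroid genes.

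The 49 genes together took 0.0320 to 0.0777% of all counts in ECs, 0.131 to 0.489% in MSCs and 0.204 to 0.457% in MNCs. MSCs were the population with the most ligand mRNA, with a summed ligand RPKM of 1285 to 5429 per library against 122 to 393 in ECs and 583 to 1085 in MNCs. For receptors MNCs were far above the others, with a summed RPKM of 395 to 1019 against 25.4 to 116 in ECs and 13.4 to 43.2 in MSCs, and the lowest MNC library lay above the highest of the others. The highest mean was in MSCs for 14 of 31 ligands, in MNCs for 10 and in ECs for 7, and in MNCs for 15 of 18 receptors, in ECs for 2 and in MSCs for 1. This tally takes any mean, however low or close to the others. Ccr8 counts for ECs at 0.003 RPKM, and Cxcr5 for MSCs at 0.691 against 0.623 in ECs and 0.62 in MNCs. A mean RPKM of at least 1 was reached by 19 ligands and 3 receptors in MSCs, 14 ligands and 3 receptors in ECs, and 11 ligands and 12 receptors in MNCs. Ccl1 and Ccr8 never passed 3 counts.

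**Figure D1:**
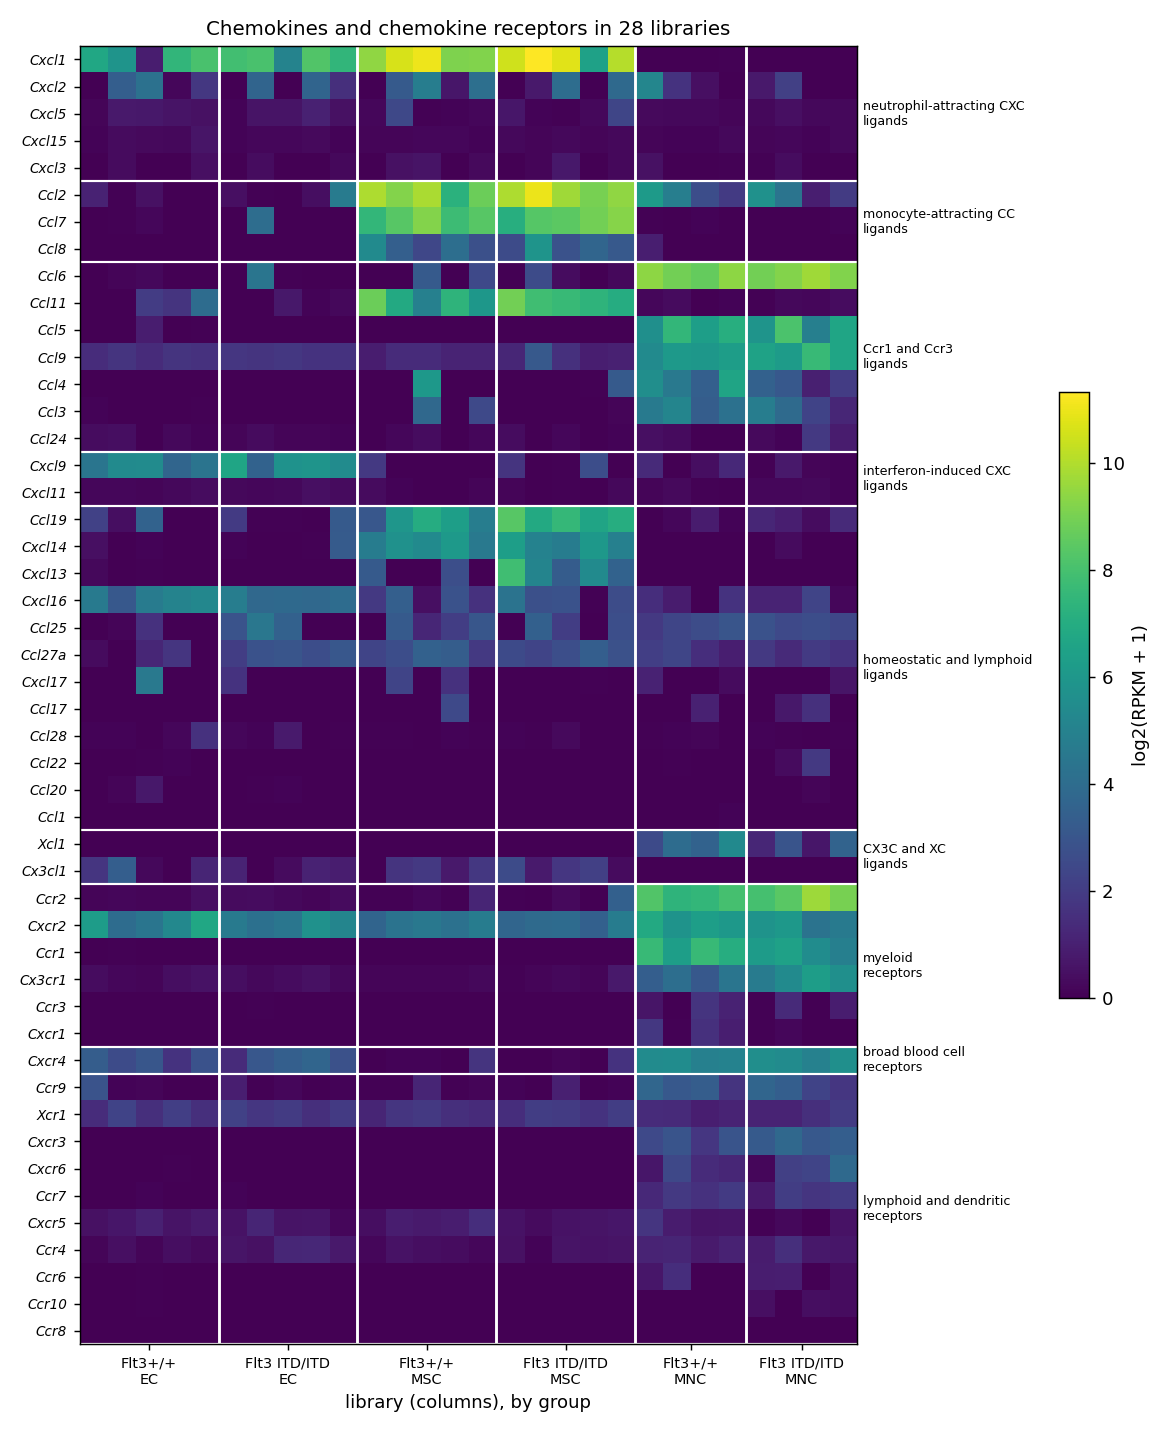
Level of 48 genes (rows, grouped by role) in each of the 28 libraries (columns, grouped by population and genotype), as log2(RPKM + 1). Monocyte-attracting ligands are bright in MSCs, Ccl6, Ccl5 and the myeloid receptors in MNCs, and Cxcl9 and Cxcl16 in ECs.

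The highest means of any member were those of Cxcl1, at 1250.4 RPKM, and Ccl2, at 813, in MSCs. Cxcl1, a neutrophil attractant that acts through Cxcr2, was at 698, 1612, 2068, 562 and 571 RPKM in the 5 Flt3+/+ MSC libraries and at 1469, 2556, 1801, 87.8 and 1079 in the 5 Flt3 ITD/ITD libraries. The library at 87.8 was the only MSC library that fell within the range of ECs. In MNCs no library had more than 1 count of Cxcl1. Ccl2, the main monocyte attractant and a ligand of Ccr2, was at 969.8, 590.5, 943, 147 and 432 in Flt3+/+ MSCs and at 959, 2048, 838, 515 and 690.1 in Flt3 ITD/ITD MSCs. Every MSC library lay above every EC library (0 to 24.9) and every MNC library (0.95 to 70.5), and against MNCs the difference passed the test (edgeR log2 fold change 5.30, standard error 1.16, adjusted p = 0.000512). Ccl7, the neighbor of Ccl2 and a ligand of Ccr1, Ccr2 and Ccr3, was at 179.8, 331, 592, 215 and 331 in Flt3+/+ libraries and 134, 326, 351, 478 and 619.6 in Flt3 ITD/ITD MSCs. Ccl7 was at most 0.08 RPKM in MNCs and at most 0.15 in 9 of 10 EC libraries, and the tenth, Flt3 ITD/ITD EC replicate 2, had 15.6. Ccl8, also of this run of genes, was at 4.34 to 56.4 in MSCs, had no count in ECs and was above 0 in a single MNC library.

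The other ligands of MSCs are known for drawing eosinophils and lymphocytes. Ccl11, an attractant of eosinophils through Ccr3, was at 432, 115, 29.2, 162 and 62.3 RPKM in Flt3+/+ libraries and 482, 226, 194, 163 and 126 in Flt3 ITD/ITD MSCs, a range that did not overlap ECs (0 to 14.9) or MNCs (0 to 0.28). Ccl19, a ligand of Ccr7, ranged from 7.51 to 334 in MSCs, Cxcl14 from 22.9 to 81.2 and Cxcl13, the ligand of Cxcr5, from 0 to 228. All 3 passed the test against both ECs and MNCs, but Cxcl13, which was at 0 in 3 of 5 Flt3+/+ MSC libraries, lost both calls in Flt3+/+ libraries alone. For Ccl19 the values are uncertain, because 51.7% of its 51-base words, the length of a read, also occur in transcripts of near copies, and the authors discarded reads without a unique mapping position.

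ECs shared Cxcl1 with MSCs at a lower level, and Cxcl9 was next in mean level among their ligands. Cxcl1 was at 105, 57.5, 0.87, 172 and 265 RPKM in Flt3+/+ ECs and 239, 265, 31.9, 299.9 and 173 in Flt3 ITD/ITD ECs, below MSCs overall (edgeR log2 fold change -3.24, standard error 0.64, adjusted p = 0.000411). The spread was wide, as 1 Flt3+/+ library had 0.87. Cxcl9, an interferon-induced attractant of T cells, was at 19.8, 41.2, 43.3, 12.1 and 19.6 in Flt3+/+ and 100.4, 10.9, 53.8, 57.6 and 43.6 in Flt3 ITD/ITD ECs. Every EC library lay above every library of the other populations, of which the highest were 5.47 in MSCs and 1.51 in MNCs (edgeR log2 fold change 5.10, standard error 1.17, adjusted p = 0.00136 against MSCs). Cxcl11, the neighbor of Cxcl9 and likewise interferon-induced, was at most 0.37 RPKM in any library, and 40.4% of its 51-base words occur in other transcripts. Cxcl16, a membrane-bound ligand of Cxcr6, was at 24.6, 7.60, 24.8, 32.5 and 36.5 in Flt3+/+ and 26.5, 13.2, 13.7, 12.99 and 14.8 in Flt3 ITD/ITD ECs against 0.05 to 18.98 in MSCs and 0.03 to 4 in MNCs. The higher level than in MSCs passed the test (edgeR log2 fold change 1.59, standard error 0.68, adjusted p = 0.0773), but the call was lost without the 2 libraries with leukocyte transcripts, in Flt3 ITD/ITD libraries alone, and without any 1 of 8 single libraries. Exons of Cxcl16 overlap those of Zmynd15 on the other strand, and no use of strand in counting is stated. Cxcl2, near to Cxcl1 and with the same receptor, was at 0, 9.29, 17.5, 0.14 and 2.57 in Flt3+/+ and 0, 11.7, 0, 11.4 and 1.92 in Flt3 ITD/ITD ECs. It was as scattered in the other populations, at 0 to 27.1 in MSCs and 0 to 35.98 in MNCs.

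MNCs, mostly blood cells, expressed a separate group of ligands, among them several that bind Ccr1. Ccl6, made by myeloid cells, was at 667, 479, 396 and 663 RPKM in Flt3+/+ and 483, 586, 835 and 571 in Flt3 ITD/ITD MNCs. In ECs Ccl6 was at most 0.19 in 9 of 10 libraries and at 20.3 in Flt3 ITD/ITD replicate 2, and it reached 8.16 in MSCs. Ccl5, made by T and NK cells, was at 48.9, 177, 79.95 and 137 in Flt3+/+ and 57.3, 276, 28.3 and 101 in Flt3 ITD/ITD MNCs, with no count in any MSC library. Ccl9, a myeloid ligand of Ccr1, was at 42.3, 67.5, 62.2 and 78.6 and 90.2, 73.04, 194 and 101, respectively, and at a near-constant 1.64 to 2.57 in ECs. Ccl3 was at 1.30 to 35.1 and Ccl4 at 0.97 to 97.6 in MNCs, where both are known products of activated macrophages and lymphocytes. Outside MNCs, Ccl4 was at 65.4 in 1 Flt3+/+ MSC library and 8.26 in Flt3 ITD/ITD MSC replicate 5, at most 0.06 in the other 8 and without a count in ECs. Xcl1, made by T and NK cells, was at 0.63 to 40.7 in MNCs and without a count in all 20 libraries of stroma.

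**Figure D2:**
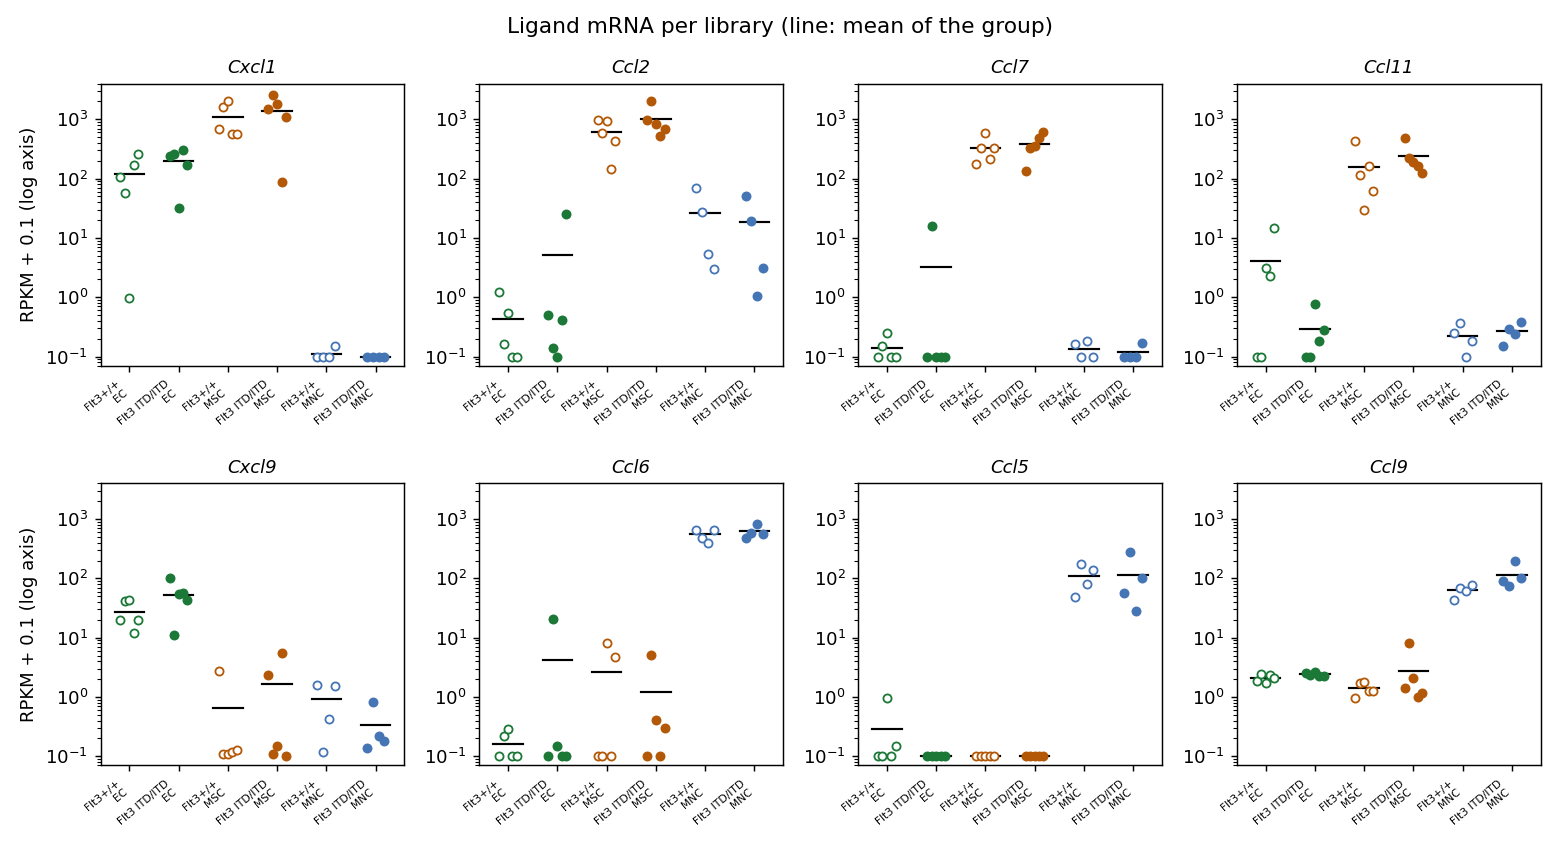
RPKM + 0.1 on a log axis for 8 ligands in each library (open circles Flt3+/+, filled circles Flt3 ITD/ITD, line at the group mean; ECs green, MSCs orange, MNCs blue). Ccl2, Ccl7 and Ccl11 separate MSCs from the rest, Cxcl9 separates ECs, Ccl6, Ccl5 and Ccl9 separate MNCs, and the single high EC library for Ccl6 and Ccl7 is Flt3 ITD/ITD replicate 2.

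Of the receptors of myeloid cells, Ccr2, Ccr1 and Cx3cr1 were far higher in MNCs than in stroma. Ccr2, through which monocytes leave the marrow, was at 299, 162, 177 and 252 RPKM in Flt3+/+ and 255, 342, 798 and 512 in Flt3 ITD/ITD MNCs. It was at most 0.37 in ECs and at most 1.27 in 9 of 10 MSC libraries, and 9.93 in Flt3 ITD/ITD MSC replicate 5. Ccr1 was at 28.6 to 196 and Cx3cr1, the fractalkine receptor of monocytes, at 7.59 to 76.8 in MNCs. Ccr1 had no count in any MSC library and was at most 0.04 RPKM in ECs, and Cx3cr1 was at most 0.69 in the stroma. Cxcr4, which retains blood-forming cells in the marrow, was at 29.4 to 48.1 in MNCs and was also found in every EC library, at 8.97, 5.10, 7.18, 2.13 and 6.25 in Flt3+/+ and 1.64, 7.45, 9.68, 11.9 and 5.96 in Flt3 ITD/ITD ECs. In MSCs Cxcr4 was at most 0.1 in 8 libraries and at 2.25 and 2.16 in replicate 5 of each genotype. ECs lay between, above MSCs (edgeR log2 fold change 3.71, standard error 0.97, adjusted p = 0.00407) and below MNCs (edgeR log2 fold change -2.68, standard error 0.94, adjusted p = 0.022). DESeq2 called Cxcr4 in neither of these comparisons nor between MSCs and MNCs, and in Flt3 ITD/ITD libraries alone edgeR did not call it between ECs and MNCs.

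Cxcr2, the receptor of Cxcl1 on neutrophils, was found in all 28 libraries. It was at 76.5, 15.1, 20.1, 38.1 and 106 RPKM in Flt3+/+ ECs and 24.6, 17.4, 20.6, 51.98 and 34.4 in Flt3 ITD/ITD ECs, at 11.6, 18.9, 21.96, 17.6 and 25.6 and 11.9, 14.2, 14.3, 10.1 and 25.9 in MSCs, and at 117, 55.5, 80.7 and 64.5 and 54.5, 64.5, 18.6 and 23.3 in MNCs. ECs overlapped MNCs (edgeR log2 fold change -0.35, standard error 0.33, adjusted p = 0.398), and MSCs were lower than both, by the test against MNCs (edgeR log2 fold change -1.32, standard error 0.33, adjusted p = 0.00176) and against ECs (edgeR log2 fold change 0.97, standard error 0.31, adjusted p = 0.0184). Both of these calls were lost in Flt3 ITD/ITD libraries alone, and the one against ECs also without Flt3+/+ EC replicate 5. Neutrophil markers were low in most ECs. The summed RPKM of 14 neutrophil genes was 172552 to 212453 in Flt3+/+ MNCs and 6.15 to 1326 in Flt3+/+ ECs, and Flt3 ITD/ITD EC replicate 2 had 30089 with a Cxcr2 of 17.4, while Flt3+/+ EC replicate 3 had 6.15 with a Cxcr2 of 20.1. Of the 51-base words of Cxcr2, 6.42% occur in transcripts of other genes. Xcr1, a receptor of dendritic cells, was likewise at a low, steady level everywhere, at 1.68 to 3.85 in ECs, 1.22 to 3.17 in MSCs and 0.92 to 2.90 in MNCs. Its differences between populations all stayed under the fold that a call needed.

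**Figure D3:**
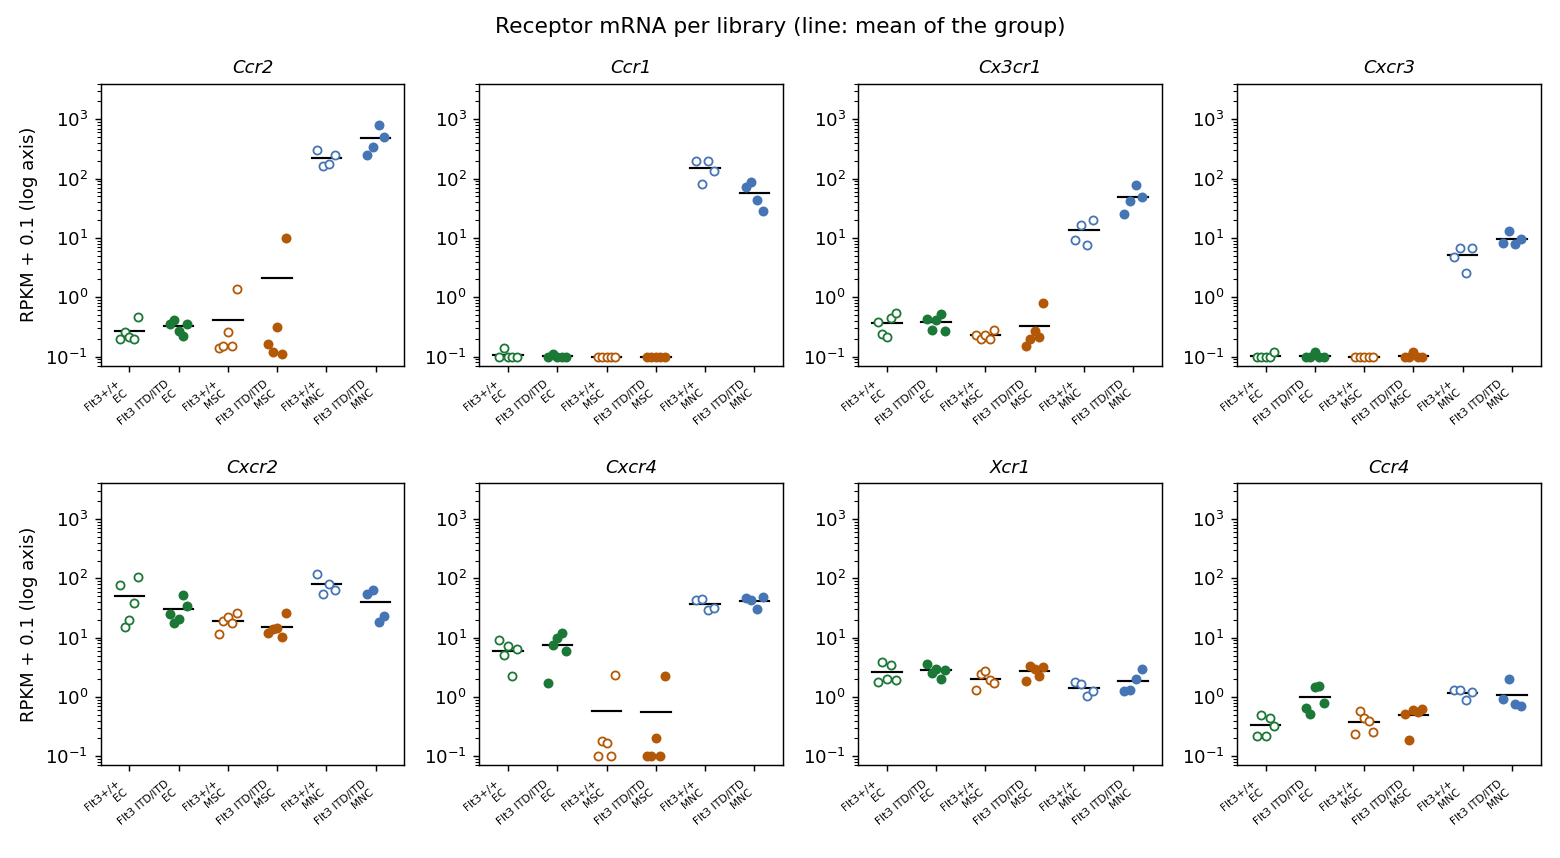
RPKM + 0.1 on a log axis for 8 receptors in each library (open circles Flt3+/+, filled circles Flt3 ITD/ITD, line at the group mean; ECs green, MSCs orange, MNCs blue). Ccr2, Ccr1, Cx3cr1 and Cxcr3 are high in MNCs only, apart from Ccr2 at 9.93 in 1 MSC library, while Cxcr2 and Xcr1 are present in every library.

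Receptors of lymphocytes were low and, apart from Xcr1, Cxcr5 and Ccr4, seen mostly in MNCs. Cxcr3, the receptor of Cxcl9, was at 2.51 to 13.1 in MNCs and at most 0.02 in the stroma. Ccr7 was at 0.69 to 3.22, Cxcr6 at 0.16 to 13.4, Ccr6 at 0 to 1.82 and Ccr9 at 2.29 to 12.2, and Ccr9 also reached 6.35 in 1 EC library. Ccr10 did not pass 0.37, and Cxcr1, the second receptor of the Cxcr2 group, did not pass 2.54 in any library. The scavenging receptor once called Cxcr7, which the table lists as Ackr3 and the symbol rule does not take, was at 121 to 639 RPKM in MSCs, 13.1 to 106 in ECs and at most 1 count in MNCs.

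Levels of each receptor and its textbook ligands were set side by side for 31 pairs, without a test. Highest again refers to the mean alone, however low or close to the others. In 12 pairs the receptor was highest in MNCs and the ligand in MSCs, in 10 both were highest in MNCs, and in 5 the receptor was highest in MNCs and the ligand in ECs. The first kind holds Ccr2, with a mean of 349.7 RPKM in MNCs, and its ligands Ccl2 and Ccl7, with 813 and 356 in MSCs. It also holds Cxcr2 with Cxcl1, and Ccr7, at 2.25 in MNCs, with Ccl19, at 117 in MSCs. The second kind holds Ccr1 with Ccl3, Ccl5 and others. The third holds Cxcr3 at 7.35 in MNCs with Cxcl9 at 40.2 in ECs, and Cxcr6 at 3.64 with Cxcl16 at 20.7.

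Populations were compared in a single edgeR fit of all libraries, with a call set at a Benjamini-Hochberg adjusted p under 0.1 together with mean RPKM that differed at least 1 log2 unit between the groups. The filter on low counts was passed by 39 of the 49 members, and since a member may pass only through the population in which it is high, the counts that follow describe the members and support nothing further. Between ECs and MSCs 17 members were called, 6 higher in ECs (background over 16897 genes 16.3%) and 11 lower (16.6%). The 6 higher were Cxcl9, Cxcl16, Ccl28, Cxcr2, Cxcr4 and Ccr7, and the 11 lower were 10 ligands and Ccr2. The calls of Ccl28, whose mean was 0.339 RPKM in ECs, and of Ccr2 were each lost without one or another single library. For Ccr7 the EC mean was 0.02 RPKM, and every EC library fell short of the 3 counts taken to show a transcript. Its call therefore does not show expression in ECs. The call of Ccr7 was also lost by DESeq2, in Flt3+/+ libraries alone and without Flt3+/+ EC replicate 3. Between ECs and MNCs 25 were called, 7 higher in ECs (23.1%) and 18 lower (22%). Between MSCs and MNCs 29 were called, 11 higher in MSCs (22.2%) and 18 lower (22%). No receptor was called higher in stroma than in MNCs, and Xcr1 missed only the fold rule (adjusted p = 0.0533 in ECs and 0.0454 in MSCs by edgeR). Of 15 receptors that passed the filter, 11 were called lower in ECs and 13 in MSCs than in MNCs. Without the 2 libraries with leukocyte transcripts, 15, 26 and 29 of 39 members were called, beside 5383, 7639 and 7382 of 16789 genes. Of the 17 between ECs and MSCs, 4 were then lost (Ccl3, Ccl4, Ccr2 and Cxcl16) and 2 were gained (Ccl6 and Cx3cr1).

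Genotypes were compared within each population to ask how Flt3-ITD bears on chemokine expression. No member was called in any population by edgeR's quasi-likelihood test, out of 15 that passed the filter in ECs, 20 in MSCs and 28 in MNCs. Over all genes tested 0.0081% were called in ECs, 0.0295% in MSCs and 0.0144% in MNCs, so few genes of any kind passed. At an unadjusted p below 0.05 there were 2 of 15 members in ECs (4.99% of all genes), 2 of 20 in MSCs (4.24%) and 8 of 28 in MNCs (10.4%). Values of the genotypes did not overlap for 2 members in ECs (background 1.14%), 1 in MSCs (0.914%) and 4 in MNCs (6.71%). DESeq2, run as an alternative, called 1 member in ECs (background 2.58%), 0 in MSCs (1.29%) and 5 in MNCs (2.23%). They were Ccr4, higher in Flt3 ITD/ITD ECs, and in MNCs Cx3cr1, higher, and Ccl4, Ccr1, Cxcr1 and Cxcr5, lower in Flt3 ITD/ITD.

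**Figure D4:**
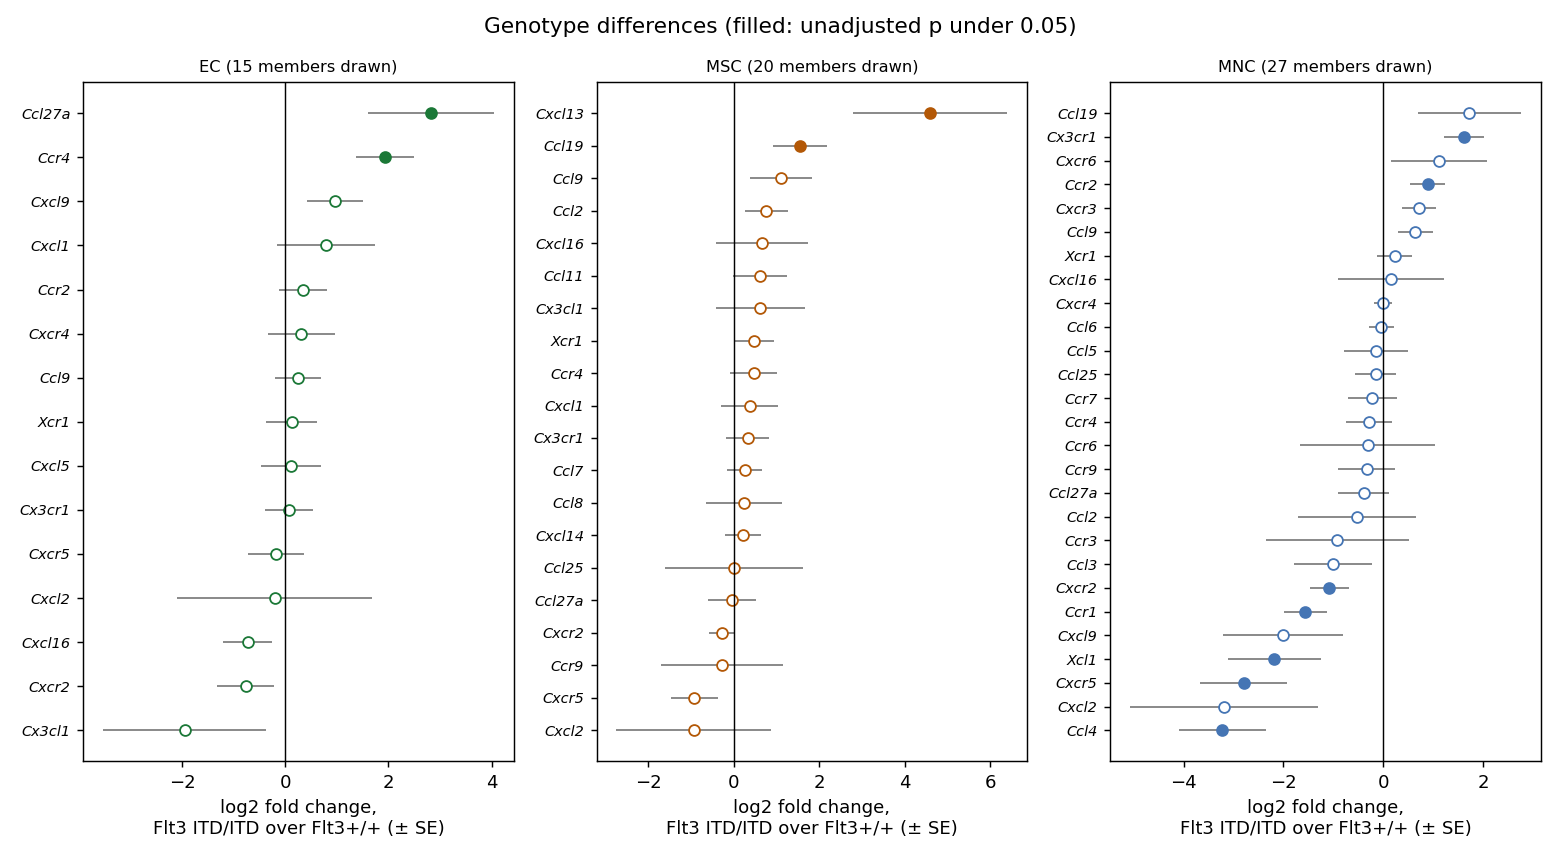
Log2 fold change of Flt3 ITD/ITD over Flt3+/+ with its standard error (bars) for members that passed the filter on low counts, 15 in ECs, 20 in MSCs and 27 in MNCs, from edgeR's quasi-likelihood fit. Filled points have an unadjusted p below 0.05, 2, 2 and 7 in number, and none passes after adjustment.

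In MNCs the members with an unadjusted p below 0.05 included the myeloid receptors Cx3cr1 and Ccr2, with higher values in Flt3 ITD/ITD, and Ccr1 and Cxcr2, with lower values, and none passed after adjustment. Cx3cr1 was at 9.31, 16.3, 7.59 and 20.1 RPKM in Flt3+/+ and 25.4, 41.6, 76.8 and 48.2 in Flt3 ITD/ITD MNCs, without overlap (mean 13.3 ± 5.86 (SD, n = 4) against 48.02 ± 21.4 (SD, n = 4)). The quasi-likelihood test gave edgeR log2 fold change 1.63, standard error 0.40, unadjusted p = 0.00256, adjusted p = 0.397. The exact two-sided permutation p was 0.0286, the smallest that 4 against 4 libraries can give, and the adjusted p of DESeq2 was 0.0134. Exons of Cx3cr1 overlap those of Gm33858 on the other strand. Ccr2 was at a mean of 223 ± 64.5 (SD, n = 4) in Flt3+/+ and 477 ± 239.5 (SD, n = 4) in Flt3 ITD/ITD MNCs, with 1 Flt3 ITD/ITD library inside the Flt3+/+ range (edgeR log2 fold change 0.89, standard error 0.36, unadjusted p = 0.0344, adjusted p = 0.448). Cxcr3 was at 4.66, 6.57, 2.51 and 6.75 and 8.11, 13.1, 7.73 and 9.42, without overlap, at an unadjusted p of 0.0661.

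Ccr1, Ccl4, Cxcr2, Cxcr5, Cxcr1 and Xcl1 had lower means in Flt3 ITD/ITD MNCs. Ccr1, a receptor of Ccl3, Ccl5, Ccl6 and Ccl9, was at 196, 80.01, 196 and 134 RPKM in Flt3+/+ and 72.9, 86.8, 44.01 and 28.6 in Flt3 ITD/ITD MNCs (edgeR log2 fold change -1.57, standard error 0.43, unadjusted p = 0.00508, adjusted p = 0.397). A single Flt3+/+ library, at 80.0, lay within the Flt3 ITD/ITD range (exact permutation p = 0.0571, DESeq2 adjusted p = 0.0256). Without that library, replicate 2, the exact permutation p was 0.0286. Removing the library that overlapped fixes this separation in advance, so that p lends no support. Ccl4 was at 47.9, 23.03, 9.70 and 97.6 and 10.4, 7.71, 0.97 and 3, respectively, and the Flt3+/+ values alone were far apart (edgeR log2 fold change -3.22, standard error 0.88, unadjusted p = 0.00472, adjusted p = 0.397). The Flt3+/+ library at 9.70 and the Flt3 ITD/ITD library at 10.4 crossed (exact permutation p = 0.0571, DESeq2 adjusted p = 0.00583). Without that Flt3+/+ library, replicate 3, the exact permutation p was 0.0286, which the removal of the crossing library likewise fixes in advance. Cxcr2 was at a mean of 79.3 ± 26.9 (SD, n = 4) against 40.3 ± 22.7 (SD, n = 4) (edgeR log2 fold change -1.08, standard error 0.39, unadjusted p = 0.0212, adjusted p = 0.419). Cxcr5, a receptor of B cells, was at 2.37, 0.8, 0.52 and 0.57 and 0.06, 0.17, 0.02 and 0.45, without overlap (edgeR log2 fold change -2.79, standard error 0.88, unadjusted p = 0.0104, adjusted p = 0.415, DESeq2 adjusted p = 0.0701). Its exons overlap those of Bcl9l on the other strand. Cxcr1, which did not pass the filter, was at 2.54, 0.05, 1.93 and 0.92 and 0.05, 0.14, 0 and 0 (DESeq2 adjusted p = 0.0309). Xcl1 was at 4.89, 14.9, 10.97 and 40.7 and 1.33, 6.61, 0.63 and 11.1, with overlap (edgeR log2 fold change -2.18, standard error 0.94, unadjusted p = 0.0434, adjusted p = 0.464). Cxcr4 overlapped between genotypes, at 43.2, 44.5, 29.4 and 31.02 in Flt3+/+ and 46.6, 42.6, 30.2 and 48.1 in Flt3 ITD/ITD MNCs (exact permutation p = 0.343). The ligands Ccl6 and Ccl5 overlapped as well, with exact permutation p = 0.543 and 0.943.

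Sums of cell type markers were set beside these values, without a test. The summed RPKM of 14 neutrophil genes, none of them at 0 in any MNC library, was 172552 to 212453 in Flt3+/+ MNCs and 184762, 162635, 44587 and 60850 in the 4 Flt3 ITD/ITD libraries. The 2 low libraries, replicates 3 and 4, also had the lowest Ccr1 and Cxcr2 of the 8 and the highest Ccr2 and Cx3cr1. In both genotypes, replicates 1 and 2 stood apart from 3 and 4 for other genes. The summed RPKM of 22 immediate-early and dissociation genes was 1121, 1001, 320 and 324 in Flt3+/+ and 1447, 1004, 256 and 195 in Flt3 ITD/ITD MNCs. Ccl2 was at 70.5, 27.4, 5.31 and 2.85 and 51.3, 19.3, 0.95 and 2.97, respectively. The source of this split and its part in the genotype differences were not tested. For 12 monocyte and macrophage genes the sums were 13640 to 21443 in Flt3+/+ and 18404 to 20178 in Flt3 ITD/ITD MNCs, for 11 B cell genes 503 to 1283 and 236 to 852, for 12 T and NK cell genes 219 to 509 and 345 to 583, and for 7 erythroid genes 60.4 to 86047 and 1323 to 12479. The part of these markers in the differences was not tested, and in such samples fewer cells of a type and less RNA per cell cannot be told apart. No member was called in MNCs after any 1 of the 8 libraries was left out.

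**Figure D5:**
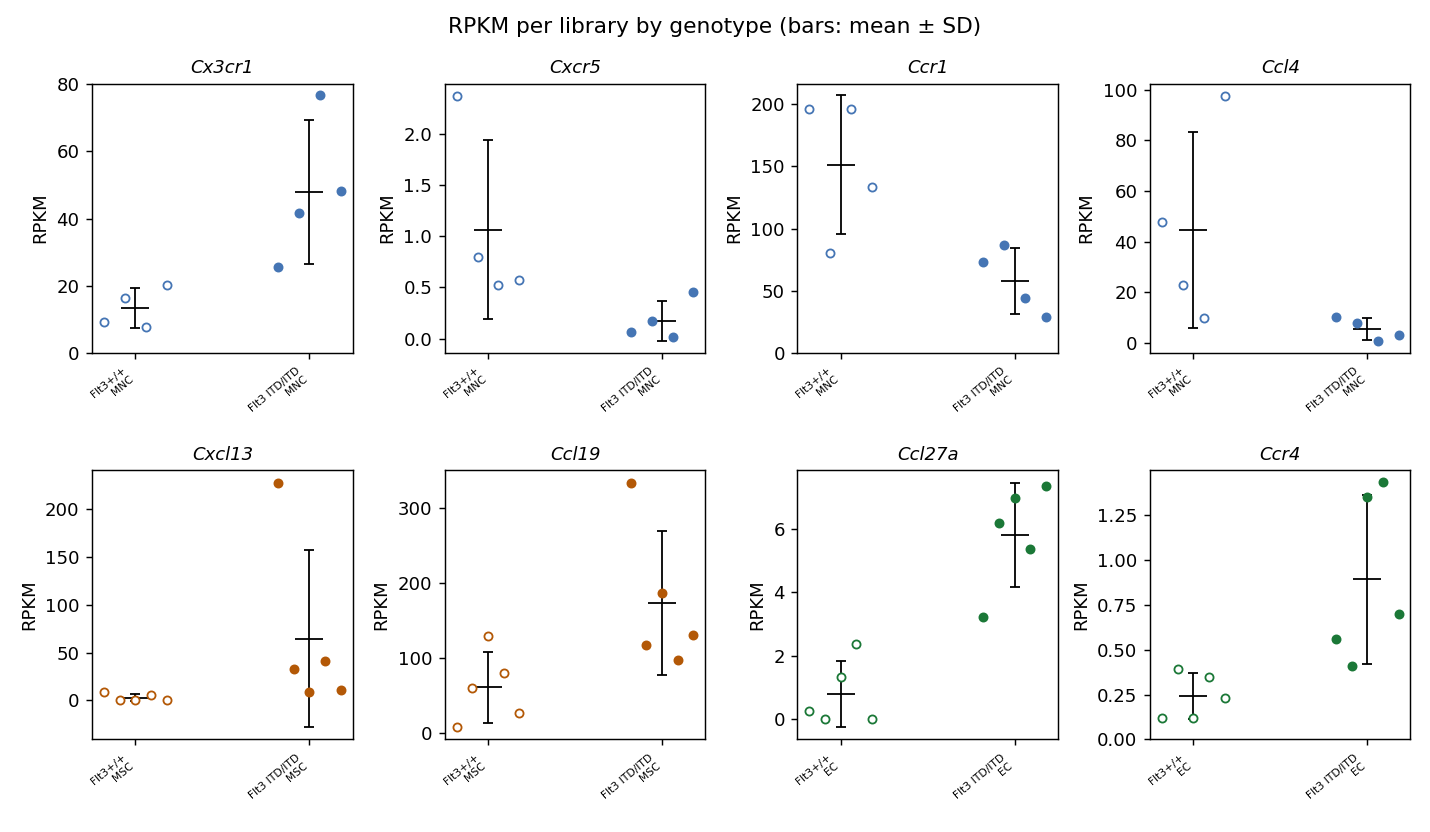
RPKM in each library of Flt3+/+ (open) and Flt3 ITD/ITD (filled) mice with mean ± SD, for 4 members in MNCs (upper row), 2 in MSCs and 2 in ECs (lower row). Cx3cr1, Cxcr5, Cxcl13, Ccl27a and Ccr4 do not overlap between genotypes, while Ccr1, Ccl4 and Ccl19 do.

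In MSCs the abundant inflammatory ligands overlapped between genotypes. Cxcl1 had a mean of 1102 ± 695 (SD, n = 5) RPKM in Flt3+/+ libraries against 1398 ± 912 (SD, n = 5) in Flt3 ITD/ITD libraries (p = 0.563, exact permutation), Ccl2 617 ± 349 (SD, n = 5) and 1009.9 ± 604 (SD, n = 5) (p = 0.278, exact permutation), and Ccl7 329.8 ± 162 (SD, n = 5) and 382 ± 181 (SD, n = 5) (p = 0.659, exact permutation). Each of these differences was smaller than the larger of the 2 SDs beside it. The members with the smallest p were lymphoid ligands. Cxcl13 was at 8.34, 0, 0, 5.54 and 0 RPKM in Flt3+/+ libraries and 228, 33.3, 8.70, 41.1 and 10.7 in Flt3 ITD/ITD MSCs, so that the highest Flt3+/+ library lay just under the lowest Flt3 ITD/ITD library (edgeR log2 fold change 4.60, standard error 1.80, unadjusted p = 0.0264, adjusted p = 0.999). Ccl19 was at 7.51, 60.5, 129, 80.2 and 27.1 and 334, 118, 186, 97.8 and 130.1, respectively, with overlap (edgeR log2 fold change 1.54, standard error 0.63, unadjusted p = 0.0324, adjusted p = 0.999). Xcr1 was at 1.22, 2.31, 2.68, 1.84 and 1.65 and 1.75, 3.17, 2.86, 2.19 and 3.13, and Ccl9 at 0.86, 1.61, 1.66, 1.17 and 1.16 and 1.34, 7.96, 2, 0.91 and 1.05, both with overlap. Cxcr5, the receptor of Cxcl13, was at 0.34, 0.85, 0.76, 0.88 and 1.76 and 0.48, 0.24, 0.45, 0.52 and 0.63 (exact permutation p = 0.0556). Its exons overlap those of Bcl9l on the other strand, so that its counts are uncertain. No member was called when Flt3 ITD/ITD replicate 5 was left out.

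In ECs the members without overlap were Ccr4, a chemokine receptor of T cells, and Ccl27a, a ligand of Ccr10 best known from skin. Ccl27a was at 0.25, 0, 1.32, 2.37 and 0 RPKM in Flt3+/+ and 3.22, 6.19, 6.98, 5.36 and 7.35 in Flt3 ITD/ITD ECs (edgeR log2 fold change 2.82, standard error 1.22, unadjusted p = 0.042, adjusted p = 0.975), from 0 to 22 and 10 to 127 counts. It ranged over 2.68 to 10.4 in MSCs and 0.95 to 4.19 in MNCs with overlapping genotypes. Of its 51-base words, 44.5% occur in transcripts of near copies such as Ccl27b and Gm13306, and its exons overlap Il11ra1 on the other strand, so that its counts are uncertain. Ccr4 was at 0.12, 0.39, 0.12, 0.35 and 0.23 and 0.56, 0.41, 1.35, 1.43 and 0.7 (edgeR log2 fold change 1.94, standard error 0.57, unadjusted p = 0.00586, adjusted p = 0.868, DESeq2 adjusted p = 0.0411), all at most 1.43 RPKM. Cxcl1, at a mean of 120.0 ± 102 (SD, n = 5) and 202 ± 106 (SD, n = 5), Cxcl9, at 27.2 ± 14.1 (SD, n = 5) and 53.3 ± 32.1 (SD, n = 5), and Cxcl16, at 25.2 ± 11.1 (SD, n = 5) and 16.2 ± 5.77 (SD, n = 5), overlapped (exact permutation p = 0.23, 0.111 and 0.143). No member was called when Flt3 ITD/ITD replicate 2, the library with leukocyte transcripts, was left out. Cxcl9 had its lowest Flt3 ITD/ITD value in that library, and without it the Flt3 ITD/ITD values, 43.6 and above, lay over the Flt3+/+ values, at most 43.3 (exact permutation p = 0.00794). That library ran against the difference, so this separation follows from its removal, and that p lends no support. Cx3cl1, fractalkine, was at 2.35, 9.39, 0.2, 0 and 1.28 and 1.18, 0, 0.27, 1.13 and 0.87 (exact permutation p = 0.294).

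Whether the genotype effect differed between populations was tested for 39 members with 2 interaction contrasts in the fit of all libraries. No member passed an adjusted p below 0.1 by edgeR (0.0296% of 16897 genes did), and the smallest adjusted p was 0.327. At an unadjusted p below 0.05 there were 7 members, 17.9% of 39, against 9.95% of all genes. DESeq2 called Ccl27a (adjusted p = 0.0924), among 396 of 25250 genes called. An effect particular to 1 population was therefore not shown for any member by edgeR.

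In 5 of the 6 groups, all but Flt3 ITD/ITD ECs, the members varied more between libraries than genes at large, without a test. Among members whose mean RPKM reached 1, the median coefficient of variation was 84.0% in MSCs of Flt3+/+ and 96.6% in those of Flt3 ITD/ITD mice, against 48.8 and 58.4% for all genes whose mean reached 1. Genes were not matched to members on level, so a part of level in this difference was not tested. It was 44.0 and 52.2% in MNCs against 31.8 and 28.3%, and 85.3 and 60.3% in ECs against 67.4 and 65.0%. In Flt3+/+ MSCs, 11 of 49 members (22.4%) had at least 100 counts in 1 library and no more than 3 in another, against 9.22% of all genes. In the other groups this share was 14.3% against 11.5% in Flt3+/+ ECs, 14.3% against 12.7% in Flt3 ITD/ITD ECs, 14.3% against 11.5% in Flt3 ITD/ITD MSCs, 4.08% against 0.844% in Flt3+/+ MNCs and 0% against 0.689% in Flt3 ITD/ITD MNCs. Ccl4, with 1223 counts in 1 library and 0 in the other 4, was an example. Cxcl17, a ligand of mucosal tissues, was at 0, 0, 22.9, 0 and 0 RPKM in Flt3+/+ ECs, and Ccl25, the thymic ligand of Ccr9, at 6.47, 21.3, 10.4, 0 and 0 in Flt3 ITD/ITD ECs. Exons of Ccl25 overlap those of Elavl1 on the other strand.

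Genes that act after the receptor, and others of the family under other names, are given as counts, to be read against the shares of all genes called, which were 23.1% higher and 22% lower in ECs than in MNCs, 22.2% higher and 22% lower in MSCs than in MNCs, and 16.3% higher and 16.6% lower in ECs than in MSCs. Of 34 genes of chemokine receptor signaling, 18 were lower and 6 higher in ECs than in MNCs, and 20 lower and 5 higher in MSCs than in MNCs. Vav1, an activator of Rac in leukocytes, was lower in ECs (edgeR log2 fold change -4.46, standard error 0.28, adjusted p = 2.25e-12) and in MSCs (edgeR log2 fold change -4.49, standard error 0.28, adjusted p = 1.69e-12). Gnb1, a G protein subunit, was higher in ECs (edgeR log2 fold change 2.14, standard error 0.13, adjusted p = 1.96e-12) and MSCs (edgeR log2 fold change 1.42, standard error 0.13, adjusted p = 1.65e-09). Between ECs and MSCs 5 were higher and 5 lower. Of 16 inducible negative regulators of NF-kB, 6 were higher and 0 lower in ECs than in MNCs, and 8 higher and 1 lower in MSCs. Nfkbia, the inhibitor that NF-kB itself induces, had the smallest adjusted p (edgeR log2 fold change 3.16, standard error 0.30, adjusted p = 4.94e-09 for ECs and edgeR log2 fold change 3.26, standard error 0.30, adjusted p = 2.77e-09 for MSCs). Of 22 immediate-early and dissociation genes, 21 were higher in ECs and 21 in MSCs than in MNCs, with summed RPKM of 2236 to 6063 in ECs, 2373 to 6431 in MSCs and 195 to 1447 in MNCs, and their part in the levels of Cxcl1, Ccl2 and Ccl7 was not tested. Of 8 tested genes for atypical receptors and chemokines under other names, 4 were higher in MSCs than in MNCs, 2 were lower, and 5 were higher in ECs than in MNCs. None of these genes was called between genotypes in any population by edgeR's quasi-likelihood test, while 0 to 2 of each list per population had an unadjusted p below 0.05.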

How the data were processed

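Libraries from sorted ECs, MSCs and MNCs were grouped by the genotype in the labels, and replicate libraries represent different mice per the study's methods. The authors amplified cDNA with a SMARTer kit, aligned single-end reads of 51 bases with Bowtie to mm10 transcripts, dropped reads that were not unique, and deposited a count per gene from RSEM. The authors also deposited RPKM, the count scaled to transcript length and library size. Tool versions and the use of strand are not given in the sources used here. The deposited counts were whole numbers and no replicates were alike within sampling noise.

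Counts were fitted with edgeR 4.0.16 (R 4.3.3), with TMM normalization, filterByExpr and quasi-likelihood tests, on all genes of the table. Genotypes were fitted within a population, and populations and their interaction with genotype in a single fit of 28 libraries. A call needed a Benjamini-Hochberg adjusted p below 0.1 and a mean RPKM ratio of at least 1 on the log2 scale. DESeq2 1.42.0 was an alternative, besides another normalization, no filter, no fold rule, the replicate number as a block, single genotypes, and fits without single libraries. RPKM of single members was compared by exact two-sided permutation tests (scipy 1.17.1), for which 5 against 5 libraries can reach 0.00794 and 4 against 4 can reach 0.0286 at best. The edgeR script was tested on simulated data. Values in every library were given for the 4 ligands and 3 receptors with the highest mean in each population, for up to 6 members per population with the smallest unadjusted p, and for Ccl4, Ccr1 and Cxcr4. Other members named with values were chosen after their values were seen. 1 receptor that counts among the members is not reported here by name or drawn. Members and lists were chosen with earlier results of these data known. Positions and promoters are from RefSeq, GRCm38.p6.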

Additional observations from a re-analysis of the deposited data

Results flagged for a closer look

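In 16 of 70 groups of 4 or 5 libraries tested for the named members, the highest library stood apart from the others by Dixon's criterion. Its rate of about 5% by chance holds for normally distributed values. Several of these groups held values at 0, so the 16 cannot be read as an excess over that rate. Flt3 ITD/ITD MSC replicate 5, which carried leukocyte transcripts, was high for Ccr2 (9.93 RPKM, others 0.01 to 0.21), Ccl4 (8.26, others 0 to 0.06), Cxcr4 (2.16, others 0 to 0.1) and Cxcr2 (25.86, others 10.13 to 14.31). Flt3+/+ MSC replicate 5 was high for the same receptors Ccr2 (1.27, others 0.04 to 0.16) and Cxcr4 (2.25, others 0 to 0.08), and its summed leukocyte RPKM of 194 was the highest of its group.

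The other libraries that stood apart did so for 1 or 2 members each. Ccl4 was at 65.44 RPKM in Flt3+/+ MSC replicate 3 and had no count in the other 4. In Flt3 ITD/ITD MSCs, replicate 1 was high for Ccl11 (481.83, others 126 to 226) and Cxcl13 (227.77, others 8.70 to 41.1), and replicate 2 for Ccl2 (2048.13, others 515 to 959) and Ccl9 (7.96, others 0.91 to 2). In ECs, Cxcl16 was at 26.48 in Flt3 ITD/ITD replicate 1 (others 12.99 to 14.8), and Cx3cl1 at 9.39 in Flt3+/+ replicate 2 (others 0 to 2.35). Ccr1 was at 0.04 in Flt3+/+ EC replicate 2 and at 0.01 in Flt3 ITD/ITD EC replicate 2, each from 1 count, with the other libraries at 0. In MNCs, Cxcr5 was at 2.37 in Flt3+/+ replicate 1 (others 0.52 to 0.8).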

How the results depend on the processing

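Of 46 counts of called members under other settings, 42 stayed within 1.5 times of the reported count. Many of these were 0 beside 0, between genotypes or for the interaction. There edgeR called few genes of any kind, so these counts say little about stability. DESeq2 called 1 member between genotypes in ECs (2.58% of all genes), 5 in MNCs (2.23%) and 1 for the interaction (396 of 25250 genes), where edgeR called 0. In ECs, 1 fit of all libraries called 1 member (275 of 16897 genes), Ccl7, which passed 3 counts in Flt3 ITD/ITD replicate 2 alone. The cause of the difference between the tools was not tested. Fits that left out 1 library called 0 members between genotypes and 0 for the interaction, 14 to 18 between ECs and MSCs, 24 to 28 between ECs and MNCs, and 28 to 31 between MSCs and MNCs. Deviations from group means were nearly uncorrelated between libraries of the same replicate number (-0.12 to 0.07), which does not exclude shared mice or batches. MNC replicates 1 and 2 differed from 3 and 4 in both genotypes, as given above. With a replicate block 0 members were called between genotypes, 0 for the interaction, and 13, 22 and 29 between populations (5217, 7259 and 7241 of 16897 genes). Flt3+/+ libraries alone gave 16, 23 and 23 of 34 members (3812, 5778 and 5606 of 15616 genes). Flt3 ITD/ITD libraries gave 12, 19 and 22 of 32 (3599, 5282 and 4839 of 15651 genes). Without 1 library the difference in mean RPKM between genotypes changed sign for Ccr1 in ECs (-0.008 to 0.002), Ccl4 in MSCs (-14.7 to 1.66) and Cxcr4 in MSCs (-0.455 to 0.4145). The exact permutation p of Cxcl13 in MSCs rose to 0.0635 to 0.0873 without any 1 of the Flt3+/+ libraries, and that of Ccl19 to 0.0635 without Flt3+/+ replicate 1, 2, 4 or 5, while Cxcl9 in ECs reached 0.00794 without Flt3 ITD/ITD replicate 2, Cxcl16 in ECs 0.0317 without Flt3+/+ replicate 2, Cxcr5 in MSCs 0.00794 without Flt3+/+ replicate 1 and Xcr1 in MSCs 0.0397 without Flt3 ITD/ITD replicate 1. In MNCs that of Cx3cr1 rose to 0.0571 without any 1 Flt3+/+ library and that of Cxcr5 to 0.0571 to 0.114 without Flt3+/+ replicate 1 or any 1 Flt3 ITD/ITD library, while Ccr1 reached 0.0286 without Flt3+/+ replicate 2 and Ccl4 without Flt3+/+ replicate 3. In each case named here in which p fell, the library left out ran against the difference. Such a fall follows from the removal and lends no support. Cells were few, so that low members near 3 counts could not be resolved.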

Other observations

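Gm1987, a predicted gene that no symbol rule took, shared the erratic pattern of several ligands. It was at 0, 1.54, 40.25, 63.9 and 1079.8 RPKM in Flt3+/+ ECs and at 0, 0, 0, 1612 and 0.13 in Flt3 ITD/ITD ECs, at most 0.64 in MSCs, and without a count in MNCs. Ackr3, once called Cxcr7, was at 121 to 639 RPKM in MSCs, above the 13.1 to 106 of ECs in every library.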
